A study of Homo sapiens with 12 samples.

Results

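The genes described here are 10 members of the hepatic lipoprotein system, namely the apolipoprotein genes APOA1, APOA2, APOA5, APOB, APOC3, APOE, APOH and APOM, the lipid transfer gene MTTP and the hepatic lipase gene LIPC. They were measured in HuH-7 cells, a line established from a human hepatocellular carcinoma, and all cultures carried the p53 mutation Y220C. Cells received the solvent DMSO, 28 µM SLMP53-2 or 42 µM SLMP53-2 for 24 h, which for SLMP53-2, a candidate reactivator of mutant p53, are 2 and 3 times the IC50. Each group held 4 cultures described as biological replicates, with 1 one-colour Agilent array per culture. The upper dose is 42 µM in the sample titles and 48 µM in the treatment field of the same samples, and is written as 42 µM here. A group therefore stands for 1 cell line at 1 time point, and RNA of a whole culture does not separate fewer expressing cells from less RNA per cell. Members were found by the gene name printed beside each probe, which gave 11 probes on 38 spots out of 41000 gene probes on 43376 gene spots, or 10 of 29123 gene names. APOA1, APOB and APOE were each spotted 10 times, APOM had 2 different probes, and the others had 1 probe on 1 spot. All 11 probes were well above background on all 12 arrays and none was saturated, so that all passed the filter that left 33467 probes for testing.

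Lipoproteins are particles of lipid and protein that carry triglyceride and cholesterol through blood. In the hepatocyte, MTTP loads lipid onto the growing APOB chain in the endoplasmic reticulum, and the particle is secreted as VLDL, whereas APOA1 and APOA2 are the main proteins of HDL. Exchangeable apolipoproteins such as APOE and APOC3 move between particles and set how fast the particles are lipolysed or taken up by receptors, and LIPC hydrolyses the lipid of remnants and of HDL.

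A probe on these arrays is a 60-base DNA that captures labelled cRNA of 1 transcript region. The probes of APOE, the gene on which the results below turn, of APOA1, a member with the same number of spots, and of APOA2 and MTTP are shown, the last pair because each spans more genome than its own length. The letters are those of the array design, in lower case, 5′ to 3′ on the strand of the gene.
APOE, A_23_P164650, hg19 chr19:45412373-45412432, plus strand: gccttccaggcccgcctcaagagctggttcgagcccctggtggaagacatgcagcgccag
APOA1, A_23_P203191, hg19 chr11:116707728-116707787, minus strand: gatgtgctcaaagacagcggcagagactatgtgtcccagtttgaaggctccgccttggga
APOA2, A_24_P302249, hg19 chr1:161192284-161192738, minus strand: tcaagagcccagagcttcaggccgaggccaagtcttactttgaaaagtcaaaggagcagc
MTTP, A_23_P213171, hg19 chr4:100542377-100543881, plus strand: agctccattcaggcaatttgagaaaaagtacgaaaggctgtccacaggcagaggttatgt
The positions of the APOA2 and MTTP probes cover 395 and 1445 more bases of the genome than the 60 of the probe, as does 1 APOM probe with 81 more, so that these 3 match spliced RNA. The APOE probe is rich in G and C (66.7%), whereas those of APOB and LIPC hold 35.0% and that of APOH 36.7%.

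Across the 12 arrays between 65.0% and 85.0% of gene spots were well above background. The 5 slides crossed the groups without balance, since 3 slides held 2 arrays and the other two held 3. Over all probes tested, the SD of the differences from the mean of the other 3 arrays of a group lay between 0.26 and 0.47 on the log2 scale and was highest in 28 µM replicates 1 (0.47) and 4 (0.39). Over the 472 probes that were higher at 42 µM than in DMSO, the median difference from the DMSO mean was 0.77, 0.92 and 0.82 on the log2 scale in 28 µM replicates 1 to 3 and 0.14 in 28 µM replicate 4. Calls at 28 µM that replicate 4 changed are therefore given with and without it. As that array was singled out by these same values, calls made without it are no independent test of a change at 28 µM. All 8 hepatocyte markers were measured, with ALB, TF and AHSG at mean log2 values of 16.14, 15.93 and 15.34 in DMSO, and none was called at either dose. Of the markers of other cell types, 4 of 6 for enterocytes, 5 of 6 for macrophages, 6 of 6 for fibroblasts and stellate cells and 4 of 5 for endothelium passed the filter, and none was called. The brightest in DMSO were VIL1 (12.26) and COL1A2 (10.12), and others such as CD14 (7.98), LUM (7.72) and CDX2 (7.11) were well above background on all arrays. FABP2, SI, PTPRC and TEK did not pass the filter.

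APOE, the ligand through which remnant particles bind receptors on the hepatocyte, rose at 42 µM. Its normalized log2 value was 14.53, 14.39, 14.50 and 14.48 in DMSO replicates 1 to 4, 15.28, 15.61, 15.47 and 15.13 at 28 µM and 15.34, 16.04, 15.52 and 15.60 at 42 µM. All 8 treated arrays lay above all 4 DMSO arrays, and 28 µM replicate 4 lay 0.65 above the DMSO mean, the smallest distance of the 8. At 42 µM the log2 fold change was 1.15 (SE 0.15, 95% confidence interval 0.82 to 1.48), a 2.22-fold higher level, with an adjusted p of 0.0112 in limma. That was 1 called probe of 11 in the upward direction, where 1.41% of all probes tested were called.

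**Figure D1:**
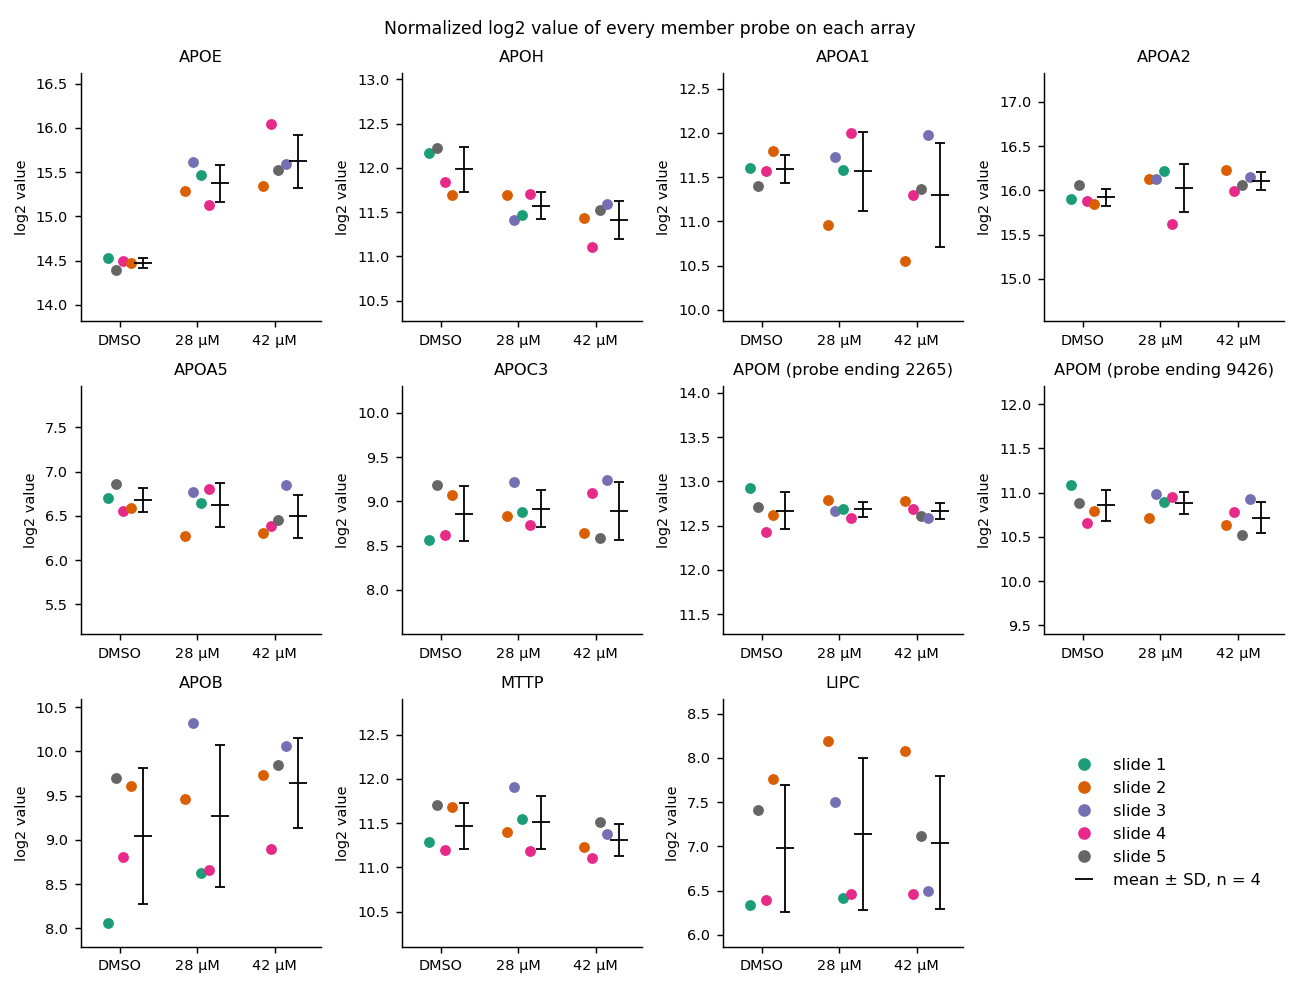
Each panel plots 1 member probe, with the normalized log2 value on the y axis (the same span of values in each panel) and the 3 groups on the x axis. Points are single arrays coloured by slide, in the order of replicates 1 to 4, and bars show the mean ± SD of 4 arrays. APOE has all treated arrays above the DMSO arrays, which lie between 14.39 and 14.53, whereas APOB and LIPC spread over more than 1 unit within each group, with arrays of a slide close together apart from those of slide 3 for LIPC.

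At 28 µM, APOE was higher by 0.90 on the log2 scale (SE 0.15, 95% confidence interval 0.57 to 1.22), or 1.86-fold, and its adjusted p of 0.115 in limma left it uncalled. No probe of any gene was called in that comparison (0% of those tested). Without 28 µM replicate 4 the difference was 0.98 with an adjusted p of 0.00739, and APOE was then the 1 called member, beside 1.31% of all probes called as higher. APOE was among the 472 probes by which that array was singled out, so this call is no independent support. It was the 1 call of APOE at 28 µM among 25 alternatives. The APOE probe gave even readings, as the SD of its repeated spots within an array had a median of 0.10 on the log2 scale.

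APOE was also higher on the treated arrays within each slide that held DMSO and treated arrays. On slide 1 the 28 µM array was 0.94 above the DMSO array, on slide 2 the differences were 0.81 at 28 µM and 0.86 at 42 µM, on slide 4 they were 0.63 and 1.54, and on slide 5 the 42 µM array was 1.13 above. Slide 3 held no DMSO array. With slide as a fixed block the difference at 42 µM was 1.14 with an adjusted p of 0.0560, which ended the call, in a fit that called 1 probe of any gene. The call also ended without DMSO replicate 2 (1.12, adjusted p 0.0505) and without 42 µM replicate 2 (1.01, adjusted p 0.0522). In each of these last fits limma called 0 probes of any gene, while 1654 and 1449 probes, APOE among them, had an unadjusted p below 0.05 and a change of at least 0.6.

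APOH, beta-2-glycoprotein I, a phospholipid-binding plasma protein, had the lowest fold changes of the members. Its log2 values were 12.17, 12.23, 11.85 and 11.70 in DMSO, 11.69, 11.41, 11.47 and 11.71 at 28 µM and 11.43, 11.11, 11.53 and 11.59 at 42 µM. The 42 µM arrays all lay under the DMSO arrays, whereas 28 µM replicate 4 lay just above the lowest DMSO array. The log2 fold change was -0.57 at 42 µM (95% confidence interval -0.89 to -0.25, adjusted p 0.0592 in limma) and -0.41 at 28 µM (95% confidence interval -0.74 to -0.09, adjusted p 0.330), so that neither was called. Without 28 µM replicate 4 the value at 28 µM was -0.46 with an adjusted p of 0.189. With Edwards values scaled to the 75th percentile, the value at 42 µM was -0.71 with an adjusted p of 0.0493, which made it a call. With the processed signal scaled in that way it was -0.71 with an adjusted p of 0.0805, and was not called. The authors' values gave -0.5998 with an adjusted p of 0.0419, short of the limit on size.

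**Figure D2:**
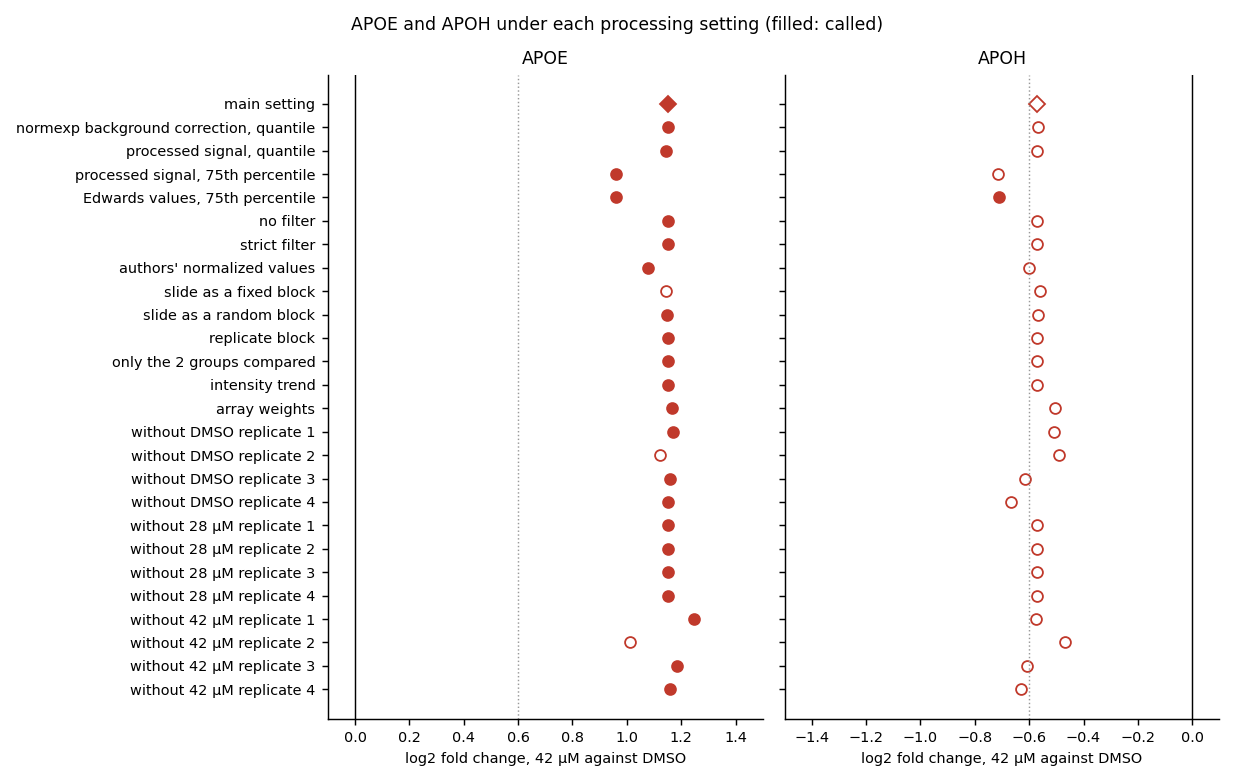
The x axes give the log2 fold change at 42 µM against DMSO for APOE (left) and APOH (right), and each row is 1 way of processing the same arrays. Filled symbols are calls (adjusted p under 0.05 and a log2 change of at least 0.6, dotted line), the diamond is the main setting, and APOE stays between 0.96 and 1.25 whereas APOH stays between -0.71 and -0.47.

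The HDL proteins showed no call at either dose. APOA1, the main HDL protein and activator of LCAT, had log2 values of 11.60, 11.40, 11.56 and 11.80 in DMSO, 10.95, 11.72, 11.58 and 11.999 at 28 µM and 10.55, 11.30, 11.37 and 11.98 at 42 µM. The SD was 0.16 in DMSO, 0.44 at 28 µM and 0.59 at 42 µM, with the lowest arrays of both doses on slide 2, whose DMSO array was the highest of its group. The fold change at 42 µM was -0.29 (95% confidence interval -0.87 to 0.28), an interval that holds both no change and a fall of over 0.6.

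APOA2, the other main HDL protein, was bright on all arrays, with log2 values of 15.90, 16.06, 15.88 and 15.85 in DMSO and 16.23, 15.996, 16.06 and 16.16 at 42 µM. At 28 µM, replicates 1 to 3 stood at 16.13, 16.13 and 16.22 and replicate 4 at 15.62, under all DMSO arrays. The fold changes were 0.10 and 0.19, and the 95% confidence interval at 42 µM ran from -0.10 to 0.48. That interval holds for quantile normalized values, and with Edwards values scaled to the 75th percentile the value at 42 µM was 0.03. APOM, a carrier of sphingosine-1-phosphate on HDL, was measured by 2 probes, whose fold changes at 42 µM were 0.00 (A_23_P42265, 95% confidence interval -0.26 to 0.25) and -0.14 (A_24_P89426, -0.41 to 0.14). Of all member probes these had the narrowest intervals, and both exclude a change of 0.6.

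APOA5 and APOC3 act in opposite directions on triglyceride breakdown, APOA5 as a helper of lipoprotein lipase and APOC3 as its inhibitor. With APOA4 and APOA1 they form the gene cluster of chromosome 11, where the order in RefSeq is APOA5, APOA4, APOC3 and APOA1. APOA5 was a dim probe, with log2 values from 6.56 to 6.86 in DMSO, from 6.27 to 6.81 at 28 µM and from 6.30 to 6.85 at 42 µM. APOC3 ranged from 8.57 to 9.18, from 8.73 to 9.22 and from 8.59 to 9.24 in the same order. The groups overlapped for both genes, with fold changes at 42 µM of -0.18 (95% confidence interval -0.51 to 0.14) for APOA5 and 0.03 (-0.37 to 0.44) for APOC3. APOA4, their neighbour, had -0.19 (adjusted p 0.545), so that no gene of the cluster was called.

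APOB, the structural protein of VLDL and LDL, varied more between slides than between groups. Its log2 values were 8.06, 9.70, 8.80 and 9.61 in DMSO, 9.46, 10.32, 8.62 and 8.66 at 28 µM and 9.74, 8.90, 9.84 and 10.06 at 42 µM, and the groups overlapped widely. The slide means were 8.34, 9.60, 10.19, 8.79 and 9.77 for slides 1 to 5, whereas arrays of the same slide lay within 0.14 to 0.56 of each other. Slides held 95.1% of the variation of APOB within groups, beside a median of 53.9% over all probes. Slide terms take up part of the variation within groups even where slides do not differ. In a limma test for slide beside group, chosen after the values were seen, APOB had an adjusted p of 0.00751 and LIPC one of 0.0121, and 2 of 11 member probes passed where 1.91% of all probes did.

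The fold change of APOB at 42 µM was 0.59 (95% confidence interval -0.31 to 1.5), and on the slides that held both groups the 42 µM array was 0.13, 0.10 and 0.14 above the DMSO array. With slide as a fixed block the value was 0.15. At 28 µM the within-slide differences were 0.56 on slide 1, -0.15 on slide 2 and -0.14 on slide 4. The repeated APOB spots differed within an array by a median SD of 0.25 and at most 0.82 on the log2 scale, which is less even than APOE.

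**Figure D3:**
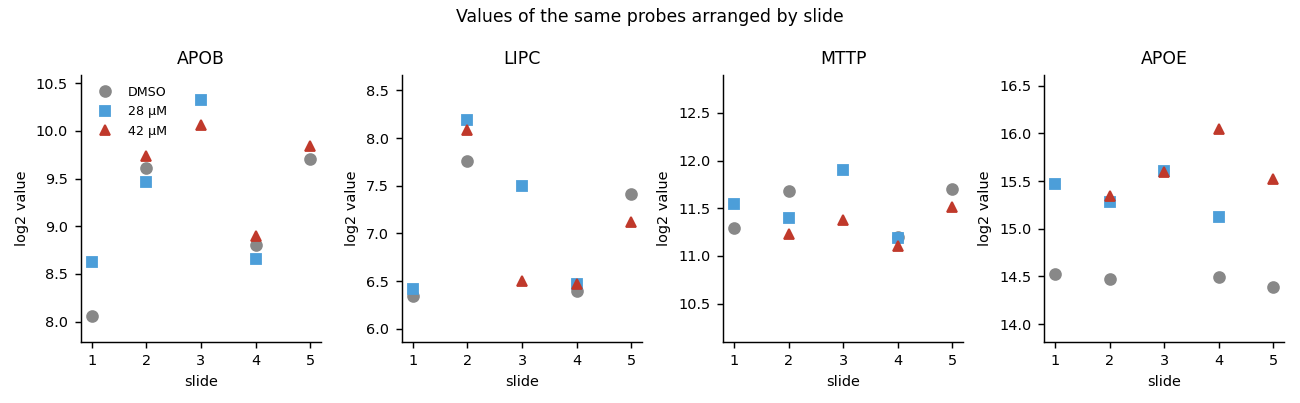
The normalized log2 value (y axis, the same span in each panel) of APOB, LIPC, MTTP and APOE is arranged by slide (x axis), with 1 point per array and a symbol per group. For APOB, and for LIPC apart from slide 3, the arrays of a slide lie together whatever their group, whereas for APOE the DMSO arrays lie lowest on each slide that holds one.

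LIPC, hepatic lipase, was dim and showed the same arrangement. Its log2 values were 6.34, 7.41, 6.40 and 7.76 in DMSO, 8.19, 7.50, 6.42 and 6.47 at 28 µM and 8.08, 6.47, 7.12 and 6.50 at 42 µM. The 3 arrays of slide 2 were the highest, from 7.76 to 8.19, and the 5 arrays of slides 1 and 4 were the lowest, from 6.34 to 6.47. Slide 3 was the exception, with arrays 0.998 apart. The fold changes of 0.16 and 0.06 had 95% confidence intervals of -0.83 to 1.16 and -0.93 to 1.06, the widest of the members, and at 42 µM the interval holds levels from 0.525 to 2.08 times that of DMSO.

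MTTP, the microsomal triglyceride transfer protein, had log2 values of 11.29, 11.70, 11.20 and 11.68 in DMSO, 11.40, 11.90, 11.54 and 11.18 at 28 µM and 11.23, 11.10, 11.52 and 11.38 at 42 µM. The groups overlapped. The fold change was 0.04 at 28 µM (95% confidence interval -0.33 to 0.41) and -0.16 at 42 µM (-0.53 to 0.21), and both intervals exclude a change of 0.6. Slides held 78.1% of its variation within groups, with an adjusted p of 0.341 for slide.

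**Figure D4:**
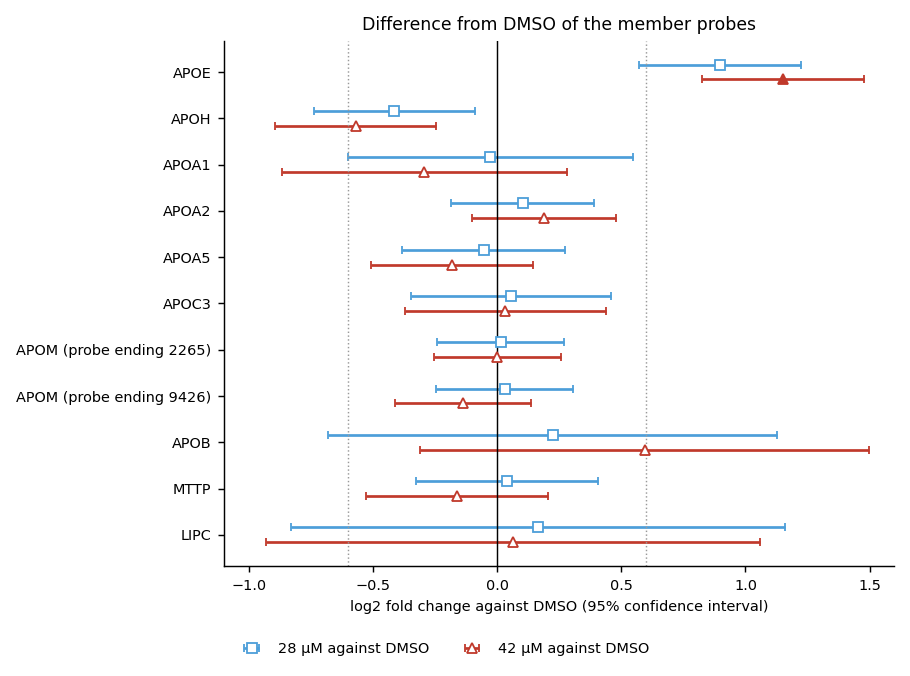
The x axis gives the log2 fold change against DMSO with its 95% confidence interval for each member probe, at 28 µM (squares) and 42 µM (triangles). Filled symbols are called and dotted lines mark 0.6 in either direction. Only the APOE interval at 42 µM lies wholly past a dotted line, and APOE and APOH are the members whose intervals exclude 0 at both doses.

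Over the 11 member probes, 5 were higher and 6 lower at 42 µM, with a median log2 fold change of -0.00 beside -0.01 over all probes. One was called as higher and 0 as lower, where 1.41% and 1.23% of all probes were called. The 4 treated arrays lay above all DMSO arrays for 1 probe (APOE) and below them for 1 (APOH), beside 5.83% and 6.49% of all probes. At 28 µM 8 were higher and 3 lower, with a median of 0.04. The groups did not overlap for 1 probe in the upward direction, APOE, and for 0 in the downward one, beside 2.69% and 2.68% of all probes. APOE was also the 1 member with an unadjusted p below 0.05 and a change of at least 0.6 at 28 µM, which 2.38% of all probes (796) had in either direction.

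The doses were compared with each other in the same model. No member was called at 42 µM against 28 µM, as no probe was (0%), and 0 members had an unadjusted p below 0.05 in limma. Hence 0 members had such a p together with a change of at least 0.6, which 0.284% of all probes had. For APOE the difference between doses was 0.25 (95% confidence interval -0.07 to 0.58), and for APOH it was -0.16 (-0.48 to 0.17). Both intervals hold 0, which does not show that the doses act alike.

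Around APOE on chromosome 19, RefSeq places TOMM40 on one side and APOC1, APOC4 and APOC2 on the other. APOC1, an exchangeable apolipoprotein that inhibits CETP, had a fold change of 0.51 at 42 µM (adjusted p 0.219 in limma). On its brightest probe all 42 µM arrays lay above the DMSO arrays, as for 5.83% of all probes. APOC2, the activator of lipoprotein lipase, had -0.26 (adjusted p 0.563) and APOC4 had -0.06 (adjusted p 0.951). None was called.

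The 5 lists of other lipoprotein genes were read from the same fit. Over all genes, 1.73% had a probe called as higher at 42 µM and 1.58% one called as lower. Of 16 other apolipoproteins 13 were measured and 0 were called, with a median of -0.11. By brightest probe the largest changes were those of APOC1 and APOC2. The dimmer tested probe of APOL6 had 0.52 (adjusted p 0.0974), while its brighter one had 0.00 (adjusted p 0.996). Of 20 assembly and secretion partners 1 was called as higher, with a median of 0.14. SOAT2, which esterifies cholesterol for the particle core, rose by 1.54 (SE 0.34, adjusted p 0.0289). All its 42 µM arrays lay above the DMSO arrays, as for 5.83% of all probes. On the brightest probes of SURF4 (-0.40) and AADAC (-0.48) they all lay below them, as for 6.49%.

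Of 12 lipoprotein receptors 11 were measured and 1 was called as higher, with a median of 0.05. VLDLR, a receptor that binds APOE, rose by 1.67 (SE 0.34, adjusted p 0.0205), and its other probe rose by 1.37 (adjusted p 0.0322). Of 13 genes that remodel lipoproteins in plasma 12 were measured and 0 were called, with a median of -0.11. The largest values were 0.99 for LIPG, endothelial lipase (adjusted p 0.0503), and 0.75 for PLTP, the phospholipid transfer protein (adjusted p 0.0904). The dimmer probe of LIPG had 0.58 (adjusted p 0.399). On the brightest probes of LIPG and PLTP all 42 µM arrays lay above the DMSO arrays, as for 5.83% of all probes. For PON1 (-0.46) and GPLD1 (-0.25) they all lay below them, as for 6.49%.

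Of 27 transcription factors that act on apolipoprotein genes, 4 were called as higher and 1 as lower at 42 µM, with a median of 0.03. CEBPB, a stress-responsive C/EBP factor, rose by 1.45 (adjusted p 0.0302) on its brighter probe, while its dimmer probe had 0.10 (adjusted p 0.880). NR0B2, the corepressor SHP, rose by 1.31 (adjusted p 0.0112). SREBF2 and SREBF1, the regulators of sterol and fatty acid synthesis genes, rose by 1.003 (adjusted p 0.0159) and 0.83 (adjusted p 0.0292) on their brighter probes, while the dimmer ones had 0.57 (adjusted p 0.196) and 0.64 (adjusted p 0.195). The dimmer probe of NR2F2, COUP-TFII, fell by 0.69 (adjusted p 0.0428), while its brighter probe had -0.47 (adjusted p 0.410). FOXA1, a pioneer factor of liver genes, and ESRRA, an orphan nuclear receptor, passed the limit on p but not that on size, with -0.50 (adjusted p 0.0222) and 0.599 (adjusted p 0.0365). Among other uncalled factors, PPARGC1A (0.84), PPARA (0.38) and THRB (0.21) had all 42 µM arrays above the DMSO arrays on their brightest probes. That held for 5.83% of all probes. For NR1H4 (-0.44) they all lay below the DMSO arrays, as for 6.49%. HNF4A, the nuclear receptor that drives many apolipoprotein genes, had -0.04 (adjusted p 0.931) on a probe with a mean log2 value of 6.73 in DMSO.

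At 28 µM no gene of these lists was called. Without 28 µM replicate 4, 7 genes were called as higher, in counts of 0, 1, 1, 1 and 4 for other apolipoproteins, partners, remodelling genes, receptors and transcription factors, beside 1.6% of all genes. With slide as a fixed block limma called 0 genes of the lists at 42 µM, in a fit where 1710 probes had an unadjusted p below 0.05 and a change of at least 0.6.

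**Figure D5:**
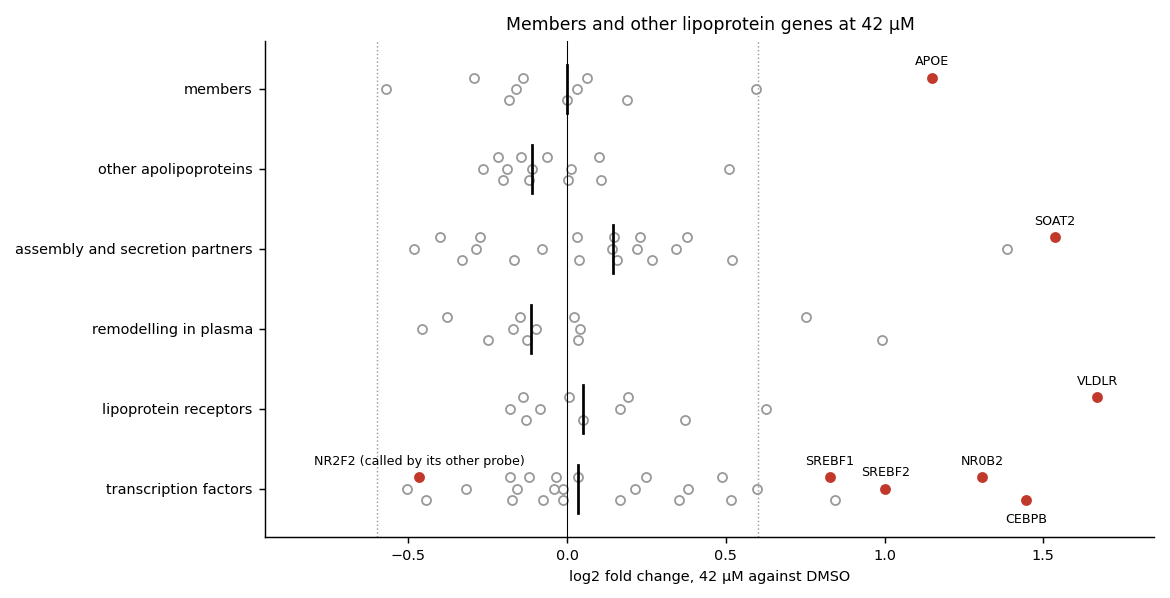
Each point is 1 gene (for the members, 1 probe) at its log2 fold change at 42 µM against DMSO on the x axis, by list on the y axis. Vertical bars are list medians, filled named points are called, dotted lines mark 0.6 in either direction, and a gene is placed by its brightest probe. The called genes other than NR2F2 lie between 0.83 and 1.67, while the medians lie between -0.11 and 0.14.

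The genes most like a member were those with the highest Pearson correlation over the 12 arrays among 33401 probes measured on all of them. The arrays share slides and groups, and the correlations are a description. For APOE these were the transcript named ENST00000443279 (r = 0.98), HPN (r = 0.98) and ASS1 (r = 0.97). The 3 nearest to APOB were ZNF92, ACTR2 and FGB (r = 0.97, 0.96 and 0.96), and FGB had a fold change of 0.31 at 42 µM. CNOT2, FGFR4 and SNRPA were nearest to APOA1 (r = 0.97, 0.94 and 0.93). RBM25, PPIA and CCDC88A were nearest to MTTP (r = 0.87, 0.85 and 0.85).

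RefSeq promoter windows of GRCh38.p14, from 250 bases before a start to 50 after it, were given for 7 of the 10 members in 11 windows, and APOA1, APOB and APOC3 had none. Short motifs of factors known from liver promoters were searched on both strands. The HNF1 motif GTTAATNAT was found in the LIPC window and in 0.792% of 35116 windows of all genes. The CCAAT box was found in windows of APOA5, APOE and MTTP, 4 of the 11, beside 34.6% of all windows. The letters of the HNF4 motif CAAAGTCCA, the direct repeat GGTCANAGG, the C/EBP-ATF motif TGATGNAA and the sterol response element TCACNCCAC were in none of the 11, beside 0.384%, 1.41%, 3.62% and 1.13% of all windows. The 250 bases before the start are shown for APOE, the called member, and for LIPC, the member with the HNF1 letters. Capitals mark the reverse complement of the CCAAT box in APOE and the HNF1 motif in LIPC.
APOE, GRCh38.p14 chr19:44905546-44905795, plus strand: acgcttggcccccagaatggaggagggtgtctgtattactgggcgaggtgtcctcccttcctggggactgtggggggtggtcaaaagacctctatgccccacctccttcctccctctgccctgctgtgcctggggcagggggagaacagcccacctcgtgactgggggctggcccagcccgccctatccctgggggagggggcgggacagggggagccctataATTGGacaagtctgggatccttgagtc
LIPC, GRCh38.p14 chr15:58431741-58431990, plus strand: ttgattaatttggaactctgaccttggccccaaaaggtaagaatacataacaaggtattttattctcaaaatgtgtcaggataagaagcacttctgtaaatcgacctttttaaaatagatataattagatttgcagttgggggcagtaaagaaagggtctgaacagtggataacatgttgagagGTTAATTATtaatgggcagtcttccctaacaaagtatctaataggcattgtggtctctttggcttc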

How the data were processed

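RNA of 12 cultures was labelled with Cy3 and hybridised on Agilent whole human genome arrays. The authors deposited scanner files, per the file headers made with Feature Extraction 10.7.3.1 (the study's methods name another version), which hold the intensity of each spot and of its local background, and a table of log2 values that they had corrected by the Edwards method and quantile normalized. Probe positions (hg19) and names are those of the array design.

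Here the mean intensity was corrected with the median local background (Edwards) and quantile normalized in limma 3.58.1 under R 4.3.3, without control or outlier spots, and spots of a probe were averaged. These values correlated with the authors' table at over 0.999 on each array. Probes well above background on at least 2 arrays of a group were kept, and limma was fitted to the 12 arrays in 3 groups. A two-sided p was adjusted by Benjamini-Hochberg over the 33467 probes, and a call needs an adjusted p under 0.05 with a log2 change of 0.6 or more. A gene of a list takes its value from its brightest probe and is called if any probe is. Confidence intervals are at 95%. No depth applies to arrays, whose number limits the precision. The fit was run on simulated data with independent noise, without slide differences or a deviating array. It therefore does not bear on calls that depend on those.

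One gene of the lists is not reported here. The members, lists and tests were chosen with earlier results of these data known. Named are every member probe, the called genes of each list or its 2 largest changes, and the 3 genes most like APOA1, APOB, APOE and MTTP. HNF4A, FOXA1, ESRRA, APOA4, APOC4, PON1, GPLD1, the dimmer probes and the slide test were added after values were seen. So were SURF4, AADAC, PPARGC1A, PPARA, THRB and NR1H4. For current names, 68.5% of probes were matched to a RefSeq transcript. As alternatives, background correction (normexp, offset 50, or the scanner's processed signal), scaling to the 75th percentile, the filter, the variance model and the fold limit were varied, the authors' values were used, slide or replicate number was a block, and each array was left out. Figures were drawn in Python 3.11.15 with pandas 2.3.3 and matplotlib 3.10.9.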

Additional observations from a re-analysis of the deposited data

Results flagged for a closer look

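APOA2 in 28 µM replicate 4 had a log2 value of 15.62, while the other 3 arrays of its group lay between 16.13 and 16.22. The gap to the nearest array was 0.855 of the group's whole range, the only such gap among 33 sets of 4 arrays (11 probes in 3 groups), where chance alone gives about 1 in 20. The same array stood closest to DMSO among the 28 µM arrays over the probes changed at 42 µM.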

How the results depend on the processing

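APOE kept its sign under all 25 alternatives at both doses, between 0.96 and 1.25 at 42 µM (22 called) and between 0.66 and 0.98 at 28 µM (1 called). Its adjusted p ranged from 0.000881 to 0.0560 and from 0.00739 to 0.476. For APOH the range was 0.0391 to 0.207 at 42 µM (1 called) and 0.189 to 0.708 at 28 µM (0 called). The members called at 42 µM went from 1 to 2 with Edwards values scaled to the 75th percentile and to 0 with slide as a fixed block, and ranged from 0 to 1 when 1 array was left out, with 0 without DMSO replicate 2 or 42 µM replicate 2. At 28 µM they ranged from 0 to 1, with 1 without 28 µM replicate 4. Without that array the 28 µM values of APOA1, APOA2 and MTTP were -0.17, 0.24 and 0.15, and none was called. With all arrays they were -0.03, 0.10 and 0.04. Genes of the lists called at 42 µM were 7, and 3 with the processed signal under quantile normalization and 0 with slide as a fixed block. Leaving out 1 array gave 0 to 9 of them, namely 0 without DMSO replicate 2 or 42 µM replicate 2, 2 without DMSO replicates 1, 3 or 4, 3 without 42 µM replicate 1 and 4 without 42 µM replicate 3. At 28 µM the range was 0 to 7. With the processed signal scaled to the 75th percentile, 2 member probes and not 1 had groups that did not overlap at 28 µM. At 28 µM APOA2 turned to -0.17 with the processed signal and -0.16 with Edwards values scaled to the 75th percentile, and the APOM probe A_23_P42265 to -0.14 with either. The cause was not tested. Over all probes 472 were called as higher and 413 as lower at 42 µM (53.3% higher), and 319 and 493 with Edwards values scaled to the 75th percentile (39.3% higher).

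Replicate numbers were not used as pairs in the main fit. Same-numbered arrays had correlations of their deviations from -0.46 to 0.62, the highest for 28 µM and 42 µM replicates 1, which shared slide 2. Differently numbered arrays were not set beside them, so whether the numbers pair the cultures was not settled. With the replicate block APOE had 1.15 (adjusted p 0.00765) at 42 µM, the members called stayed 1 at 42 µM and 0 at 28 µM, and 776 probes were called as higher and 590 as lower. The widest intervals at 4 arrays per group were those of LIPC and APOB, and the dimmest member probes were those of APOA5 and LIPC.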
